A study of Mus musculus with 18 samples.

Results

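Cerebellar RNA of B6J mice lacking the ribosome rescue factor GTPBP2 was compared with that of B6J mice, in 6 of the 18 samples of the series (3 libraries of each genotype). The comparison was set in advance by sample label, and all genes with enough counts were tested, falling genes included. The study concerns GTPBP1 and GTPBP2, related GTPases that act on stalled ribosomes, and the neurodegeneration that follows their loss in mice. It joined RNA sequencing with ribosome footprinting of the cerebellum in controls and in mice lacking either factor.

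Every animal was on the C57BL/6J strain and 3 weeks old, and each library came from the cerebellum of a single mouse. C57BL/6J carries a processing variant of the tRNA gene n-Tr20, which lowers the supply of the arginine tRNA that reads AGA codons. The controls carry it too, so the comparison shows the effect of GTPBP2 loss on top of that tRNA deficit. The mutants are homozygous for nmf205, a point mutation induced by ethylnitrosourea that acts as a null allele and is not a deletion. The libraries were made with a poly(A) kit that does not keep strand, and were labelled as a single batch.

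A ribosome that lacks the tRNA for its next codon stalls, and colliding or stalled ribosomes can activate the kinase GCN2. GCN2 phosphorylates eIF2α, which slows initiation at most mRNAs while raising translation of the transcription factor ATF4. ATF4 then drives genes for amino acid uptake and synthesis, tRNA charging and stress signalling, several of which feed back on the pathway.

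The libraries held between 46026737 and 52114145 counts. Markers of cerebellar neurons were abundant in B6J mice (*Pcp2* 1358 TPM, *Car8* 1080, *Gabra6* 890), and forebrain and midbrain markers summed to 19.6, 17.7 and 27.7 TPM in B6J mice and 56.3, 38.6 and 43.3 in B6J-*Gtpbp2*-/- mice, higher in each B6J-*Gtpbp2*-/- library, against 3861 to 4981 for granule neuron markers. The 7 forebrain and midbrain markers had a median log2 fold change of 0.75 (0.21 relative to all genes on TPM, 0.40 without the library of lowest *Ttr* in each genotype) with 0 called by edgeR, 3 at an unadjusted p under 0.05 and 1 called by DESeq2. The most abundant of these markers, *Tac1*, had a mean of 4.51 TPM in B6J mice and 20.9 in B6J-*Gtpbp2*-/- mice. The part of these markers in the results below was not tested.

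B6J library 2 was the only male, with 4663 counts of the Y-linked gene *Ddx3y* and 120 of *Xist*, the RNA of the inactive X, against 55288 or more *Xist* counts in each other library. The choroid plexus marker *Ttr* had 78398, 50816 and 11545 counts in the B6J libraries and 2300, 52776 and 34670 in the B6J-*Gtpbp2*-/- libraries, so B6J library 3 and B6J-*Gtpbp2*-/- library 1 stood apart from the rest. Mitochondrial genome transcripts took 5.93, 5.61 and 6.18% of counts in B6J mice and 5.01, 4.8 and 5.04% in B6J-*Gtpbp2*-/- mice.

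*Gtpbp2* itself, the mutated gene, was at 84.9, 72.5 and 87.1 CPM in the B6J libraries and 64.6, 74.6 and 71.3 in the B6J-*Gtpbp2*-/- libraries. The groups overlapped and the gene was not called (log2 fold change -0.22, SE 0.0925, adjusted p by edgeR's test 0.190), and the sign of this value turned under the transcript length offset. The make-up of its transcripts differed more than its total. The protein-coding transcript *Gtpbp2-201* was at 31.3, 29.6 and 34.2 TPM in B6J mice against 18.2, 23.5 and 22.5 in B6J-*Gtpbp2*-/- mice. The retained-intron transcript *Gtpbp2-212* was at 7.41, 9.46 and 5.03 TPM against 24.6, 22.3 and 21.2, and the retained-intron transcripts *Gtpbp2-209*, *Gtpbp2-213* and *Gtpbp2-214* were also higher in each B6J-*Gtpbp2*-/- library than in any B6J library, while 2 others (*Gtpbp2-202* and *Gtpbp2-207*) overlapped between genotypes. Also higher throughout was a shorter protein-coding transcript, *Gtpbp2-208*, at 6.71, 5.61 and 7.15 TPM against 8.38, 11.9 and 13.4. *Gtpbp1*, its paralogue, was not called (70.1, 76.2 and 65.9 CPM against 57.8, 71.4 and 64.4, log2 fold change -0.13, adjusted p by edgeR's test 0.473).

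Loss of GTPBP2 changed the cerebellar transcriptome in both directions, with 8.63% of the genes tested called. The genes that rose included ATF4-linked regulators, amino acid transporters and synthesis enzymes, cytosolic aminoacyl-tRNA synthetases and stress-secreted factors, joined by complement, microglial and interferon genes. The genes that fell were smaller in fold change and more abundant, and whether they outnumbered the risers depended on the method. They included granule neuron genes, synaptic vesicle and calcium genes and genes of glycolysis, oxidative phosphorylation and cholesterol synthesis. Cytosolic ribosomal proteins, the proteasome and initiation factors had medians of 0.01, 0.00 and 0.07 against 0.03 for all genes.

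Of 24859 genes tested, 2146 were called by edgeR (8.63%), 898 higher in B6J-*Gtpbp2*-/- mice (3.61%) and 1248 lower (5.02%). The B6J-*Gtpbp2*-/- and B6J libraries did not overlap at any called gene, and 28.7% of all genes tested had libraries that did not overlap. The direction split depended on the method. Higher genes made up 41.8% of the calls, but 53.3% under upper-quartile scaling (1074 higher, 941 lower), which moved the median of all genes from 0.03 to 0.07. They made up 77.2% for limma on log2(TPM + 0.5) (750 and 221). Of the edgeR calls with an estimated change of at least 1.5-fold they made up 60.2% (660 and 437). The number called also depended on single libraries, being 1402 without B6J-*Gtpbp2*-/- library 2, 1004 without B6J-*Gtpbp2*-/- library 3, 972 without B6J library 1 and 1063 without B6J library 2. Where a named gene lost its call under some of the alternative settings (the 1.5-fold threshold is not among those counted), their number is given beside it.

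**Figure D1:**
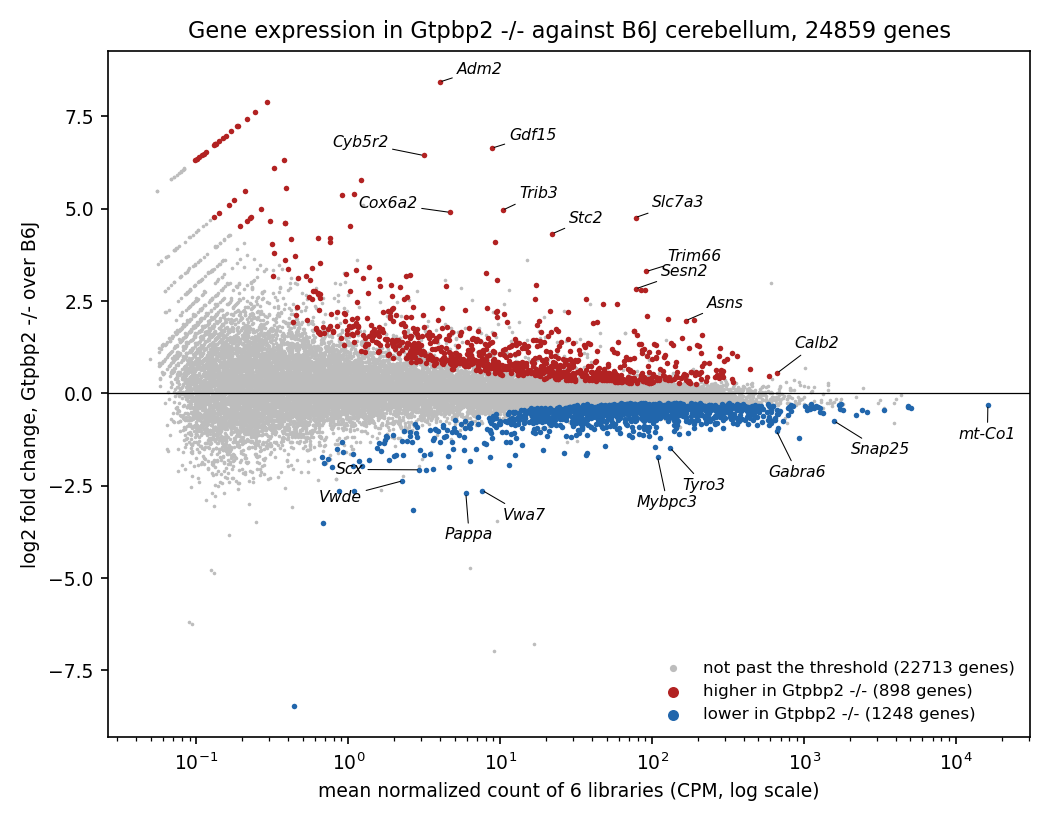
Log2 fold change of B6J-*Gtpbp2*-/- over B6J libraries (vertical axis) against mean CPM of the 6 libraries (horizontal axis, log scale) for each gene tested, with higher genes in red, lower genes in blue and others in grey. Red points spread upwards at low and middle abundance, while blue points lie in a narrow band at high abundance.

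Rises were large and falls were small. The median log2 fold change was 0.93 among the 898 higher genes (quartiles 0.57 and 1.49) and -0.48 among the 1248 lower genes (quartiles -0.68 and -0.39). At least 2-fold rises were seen in 411 genes (45.8% of the higher) and at least 2-fold falls in 113 (9.05% of the lower), and at least 4-fold changes in 130 and 12. Among the higher genes 19 had no count in any B6J library and 15 had 1 to 3, so their fold changes rest on small counts.

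The falling genes had the more abundant mRNA. The median level was 72.3 CPM for lower genes and 12.5 CPM for higher genes. When genes were split by abundance into 10 bins of equal size, 91 rose and 501 fell in the most abundant bin, with a median log2 fold change of -0.10, while in the 3 least abundant bins 67 rose and 2 fell, with a median of 0.27. By limma on TPM these medians were 0.06, with the sign turned, and 0.18, but that of all genes itself moved to 0.15, so the low bins lay near it. Summed over the genes, the 898 risers took 17756, 18252 and 18193 TPM in B6J mice against 30774, 34745 and 34453 in B6J-*Gtpbp2*-/- mice. The 1248 fallers took 288439, 287264 and 284774 TPM in B6J mice and 235480, 232667 and 236520 in B6J-*Gtpbp2*-/- mice. List medians on TPM are given below relative to that of all genes. Counts on TPM are not corrected for that shift, and by that fit 750 of all genes tested were higher and 221 lower. Counts of list members called stand beside 3.61% of all genes higher and 5.02% lower. Most list members are protein-coding genes, of which 11.7% were called in either direction. Falls were also more frequent in the most abundant bin (501 of 2486 genes).

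Protein-coding genes held most calls: of 17115 tested, 813 rose and 1188 fell (11.7%, median log2 fold change 0.01). Of the 7744 other genes 85 rose and 60 fell (1.87%, median 0.12), among them 26 and 19 of 1924 lincRNAs, 11 and 7 of 1466 antisense RNAs and 14 and 8 of 851 processed pseudogenes.

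Regulators of the integrated stress response rose, among them its transcription factors. Of 16 such genes tested 11 rose, with a median log2 fold change of 0.73 (0.73 relative to all genes on TPM) against 0.03 for all 24859 genes, and 7 rose with sex as a covariate. *Atf4* was at 146, 178 and 188 CPM in B6J mice and 273, 332 and 306 in B6J-*Gtpbp2*-/- mice (log2 fold change 0.83, SE 0.108, adjusted p by edgeR's test 0.000914), and the groups did not overlap. Its partner and relative *Atf5* rose from 15.8, 19.5 and 16.3 to 59.4, 76.5 and 58.1 CPM (1.91), and *Ddit3*, which encodes the stress factor CHOP, from 20, 19.2 and 21.2 to 38.4, 51.5 and 46.8 (1.18). *Cebpg* and *Cebpb*, which encode C/EBP partners of ATF4, rose by 1.20 and 1.80 in log2 fold change. *Cebpb* lost its call under 4 of the alternative settings.

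Feedback genes rose with them. *Trib3*, a pseudokinase that restrains ATF4, went from 0.379, 0.613 and 0.923 CPM in B6J mice to 18.0, 21.2 and 21.1 in B6J-*Gtpbp2*-/- mice (log2 fold change 4.96, SE 0.263, adjusted p by edgeR's test 2.69e-06). Every B6J-*Gtpbp2*-/- library lay above every B6J library for this gene. *Ppp1r15a*, the eIF2α phosphatase subunit GADD34, rose from 27.4, 29.3 and 22.1 to 36, 44.5 and 40.8 CPM (0.62), and the chromatin-linked stress protein gene *Nupr1* from 3.88, 3.57 and 4.28 to 12, 20.6 and 19.5 (2.15). *Atf3*, a stress-induced repressor, was more variable, at 3.31, 2.13 and 0.668 CPM against 10.7, 22.6 and 17.6 (3.06), and lost its call under 7 of the alternative settings. *Impact*, which limits GCN2, rose by 0.58 and *Eif2ak2*, the double-stranded RNA kinase PKR, by 0.48, losing their calls under 9 and 11 settings. The other kinase genes, *Eif2ak4* (GCN2, -0.14), *Eif2ak3* (PERK, -0.09) and *Eif2ak1* (HRI, -0.09), were not called, nor were *Eif2s1* (eIF2α itself, 0.12) and *Ppp1r15b* (the constitutive phosphatase subunit, 0.31).

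The secreted and secondary effectors of the response held the largest rises. Of 20 tested 17 rose, with a median log2 fold change of 2.68 (2.07 relative to all genes on TPM). *Stc2*, a secreted glycoprotein of calcium and stress signalling, went from 2.72, 2.03 and 1.53 CPM to 26.0, 50.8 and 48.7 (4.32, SE 0.330, adjusted p by edgeR's test 0.000431), with no overlap and with B6J-*Gtpbp2*-/- library 1 the lowest of its group. *Gdf15*, a stress cytokine, went from 0.401, 0.106 and 0.0196 CPM to 11.7, 26.3 and 14.5 (6.64), and *Fgf21*, a metabolic hormone, rose by 5.40 (lost under 2 settings). *Adm2*, which encodes the peptide intermedin, had 3 counts over the B6J libraries against 1254 over the B6J-*Gtpbp2*-/- libraries, a ratio of 393 with a counting interval of 134 to 1909 (exact binomial, 95%). That interval covers counting error only and leaves out variation between mice. *Eif4ebp1*, a brake on cap-dependent initiation, rose from 1.24, 2.2 and 1.12 CPM to 12.3, 17.6 and 14 (3.26). *Ddr2*, a collagen receptor, *Fam129a*, a stress-induced regulator of translation, and *Xpot*, the tRNA exporter, rose by 2.80, 2.55 and 1.30, *Fam129a* being lost under 5 settings.

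*Trim66*, a chromatin reader, *Sesn2*, an amino acid sensor upstream of mTOR, and *Chac1*, a glutathione-cleaving enzyme, were uniformly low in B6J mice (14.6, 18.5 and 17.6; 19.9, 20.8 and 17.0; 4.07, 3.99 and 3.93 CPM) and uniformly high in B6J-*Gtpbp2*-/- mice (137, 172 and 190; 115, 155 and 140; 25.7, 34.8 and 30.9). *Chac1* was the only riser among 12 glutathione genes. In that list *Ggt7*, a gamma-glutamyl transferase, fell, with a value of -0.41 (lost under 6 settings) and the median was -0.02 (0.02 under upper-quartile scaling, its sign turning with the shift of all genes).

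Amino acid uptake genes split by transporter. Of 32 tested 8 rose and 2 fell, with a median log2 fold change of 0.19 (0.21 relative to all genes on TPM). The cationic amino acid transporter *Slc7a3* was at 5.88, 6.15 and 4.62 CPM in B6J mice and 120, 170 and 159 in B6J-*Gtpbp2*-/- mice, without overlap. *Slc7a5*, the light chain of the large neutral amino acid carrier, rose from 83.4, 79.1 and 64.6 to 271, 316 and 310 CPM (1.98, SE 0.107, adjusted p by edgeR's test 2.73e-06), and its heavy chain *Slc3a2* from 123, 122 and 111 to 234, 331 and 299 (1.28). The arginine and lysine carrier *Slc7a1* (2.00), the alanine and serine carrier *Slc1a4* (1.58), the cystine exchanger *Slc7a11* (0.99) and the glutamine carriers *Slc38a2* (0.61) and *Slc38a7* (0.45, lost under 5 settings) also rose. The astrocytic carriers *Slc7a10* and *Slc1a3* fell, with values of -0.48 and -0.44 and lost their calls under 7 and 8 settings.

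Many genes for enzymes that make asparagine, serine, glycine, proline and one-carbon units rose. Of 27 tested 14 rose and 1 fell, with a median log2 fold change of 0.70 (0.63 relative to all genes on TPM). *Asns*, asparagine synthetase, was at 65.6, 70.2 and 67.3 CPM in B6J mice and 212, 305 and 280 in B6J-*Gtpbp2*-/- mice (1.97, SE 0.121, adjusted p by edgeR's test 1.11e-05), the groups being fully apart. The mitochondrial folate enzyme *Mthfd2* went from 10.3, 9.89 and 11.8 to 47.3, 71.5 and 70.1 CPM (2.56), with *Shmt2* at 34.0, 36.4 and 34.0 against 129, 172 and 148 and *Aldh1l2* at 20.8, 20.1 and 13.8 against 89.3, 109 and 96.7 (2.43). The serine pathway genes *Phgdh*, *Psat1* and *Psph* rose by 1.13, 0.99 and 1.48 and the proline pathway genes *Pycr1* and *Aldh18a1* by 2.30 and 1.39. *Gpt2*, an alanine aminotransferase, and *Cth*, which makes cysteine, rose by 1.10 and 1.14, *Cth* being lost under 7 settings. The lower gene was *Aldh1l1*, the cytosolic folate enzyme and astrocyte marker (-0.30), which lost its call under 12 settings.

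Genes of tRNA charging in the cytosol rose. Of 20 cytosolic aminoacyl-tRNA synthetase genes 12 rose, with a median log2 fold change of 0.85 (0.83 relative to all genes on TPM). *Cars*, for cysteine, was at 45.5, 45.9 and 46.6 CPM in B6J mice and 102, 126 and 122 in B6J-*Gtpbp2*-/- mice (1.34, SE 0.0905, adjusted p by edgeR's test 1.36e-05), and *Gars*, for glycine, went from 108, 116 and 114 to 229, 316 and 302 (1.32). Both genes were apart in all libraries. *Yars* (1.22), *Lars* (1.17), *Nars* (1.10), *Sars* (1.09), *Iars* (1.05), *Mars* (0.98), *Tars* (0.93), *Aars* (0.87), *Eprs* (0.83) and *Wars* (0.56, lost under 11 settings) made up the rest. Of 17 mitochondrial synthetase genes only *Mars2* rose (0.36, lost under 11 settings), and their median was -0.06.

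**Figure D2:**
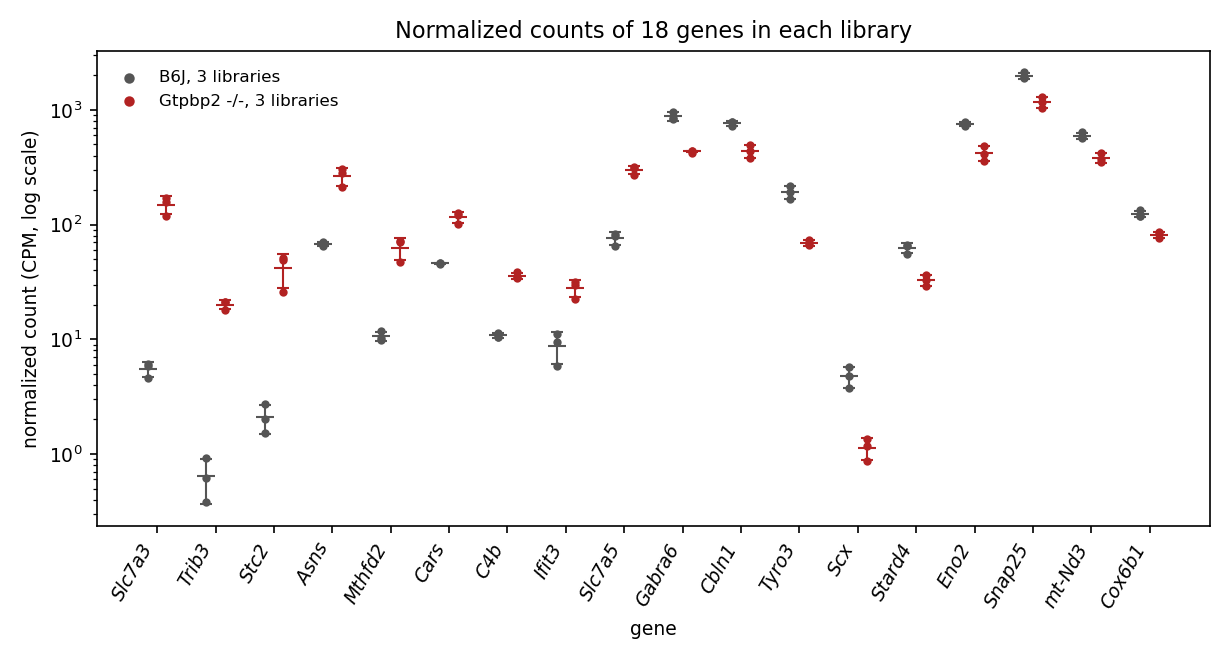
CPM of 18 genes in each B6J and B6J-*Gtpbp2*-/- library (log scale), with bars at the mean and SD of each genotype. Stress response genes separate by several-fold, while granule neuron, synaptic, glycolytic and mitochondrial genes separate by less than 2-fold or near it.

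The C/EBP-ATF response element, TGATGNAA or TTNCATCA on the other strand, is the core of sites that ATF4 can bind. Sequence was held for 32851 promoters, each of 300 bases (250 before the start and 50 after it), and 1304 of them (3.97%) contained this 8-base word. The bases before the start are printed. The promoter table covered 72.2% of the 898 higher genes and 74.1% of the 1248 lower genes, which is less than 80%, so shares were not compared between gene sets. Matches are shown for 6 rising genes, taken by smallest adjusted p among the named genes with a log2 fold change of 1 or more and a match that ends before the start, to give the sequence around the word. A match is a description of sequence and not evidence of binding. Capitals mark the match, sequences read in the direction of the gene, and positions are in build GRCm38.p6: *Chac1* chr2:119350992-119351241 (+), *Asns* chr6:7693210-7693459 (-), *Herpud1* chr8:94386179-94386428 (+), *Gars* chr6:55037751-55038000 (+), *Hrk* chr5:118169514-118169763 (+) and *Nupr1* chr7:126625471-126625720 (-).

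Chac1: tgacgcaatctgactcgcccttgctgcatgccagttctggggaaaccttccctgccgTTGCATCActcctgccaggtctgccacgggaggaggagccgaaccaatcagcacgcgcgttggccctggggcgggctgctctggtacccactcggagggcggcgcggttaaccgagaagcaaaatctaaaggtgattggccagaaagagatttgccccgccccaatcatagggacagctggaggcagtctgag

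Asns: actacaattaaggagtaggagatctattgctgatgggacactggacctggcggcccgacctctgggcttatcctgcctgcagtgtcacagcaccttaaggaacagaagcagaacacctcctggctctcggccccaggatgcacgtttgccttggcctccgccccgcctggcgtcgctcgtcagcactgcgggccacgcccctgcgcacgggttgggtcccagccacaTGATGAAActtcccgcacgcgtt

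Herpud1: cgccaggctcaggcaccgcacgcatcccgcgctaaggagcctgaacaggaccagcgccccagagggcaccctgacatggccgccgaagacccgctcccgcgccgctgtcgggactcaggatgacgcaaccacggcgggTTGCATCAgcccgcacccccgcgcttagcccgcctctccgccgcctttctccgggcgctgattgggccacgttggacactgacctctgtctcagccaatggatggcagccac

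Gars: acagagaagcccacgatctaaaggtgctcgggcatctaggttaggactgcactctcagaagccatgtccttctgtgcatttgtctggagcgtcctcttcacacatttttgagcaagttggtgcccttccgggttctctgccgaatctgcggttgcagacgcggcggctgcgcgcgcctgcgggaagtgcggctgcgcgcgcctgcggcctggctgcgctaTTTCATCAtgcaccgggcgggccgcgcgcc

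Hrk: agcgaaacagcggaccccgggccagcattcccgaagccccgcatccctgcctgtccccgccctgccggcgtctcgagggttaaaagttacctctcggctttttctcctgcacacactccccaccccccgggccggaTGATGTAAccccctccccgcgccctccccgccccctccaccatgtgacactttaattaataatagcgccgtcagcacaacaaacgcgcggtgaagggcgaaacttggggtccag

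Nupr1: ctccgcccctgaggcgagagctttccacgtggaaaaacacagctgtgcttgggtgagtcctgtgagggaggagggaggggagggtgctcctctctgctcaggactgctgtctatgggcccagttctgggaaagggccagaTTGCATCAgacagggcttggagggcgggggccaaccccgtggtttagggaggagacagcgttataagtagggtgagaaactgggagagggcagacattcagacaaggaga

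The match began 193 bases before the start in *Chac1*, 112 in *Herpud1*, 30 in *Gars* and 110 in *Nupr1*, all in the TTNCATCA reading, and 23 in *Asns* and 114 in *Hrk* in the TGATGNAA reading. *Herpud1*, an endoplasmic reticulum quality control gene, was at 55.8, 61.0 and 57.4 CPM in B6J mice and 127, 163 and 148 in B6J-*Gtpbp2*-/- mice (log2 fold change 1.33, adjusted p by edgeR's test 1.98e-05).

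Genes of the translation machinery were called in shares from 1.22% (cytosolic ribosomal proteins) to 15.8% (elongation and termination), against 8.63% of all genes and 11.7% of protein-coding genes. Of 82 cytosolic ribosomal protein genes only *Rpl5*, a 60S protein, rose (0.55, lost under 4 settings), with a median log2 fold change of 0.01. Among 45 initiation factors *Eif3c* (1.00), *Eif2s2*, the beta subunit of eIF2 (0.75), and *Eif1* (0.31, lost under 7 settings) rose, with a median of 0.07. Among 19 elongation and termination factors the release factor gene *Etf1* rose by 0.40 (lost under 6 settings), while *Eef1a2*, the neuronal elongation factor, and *Tufm*, its mitochondrial counterpart, fell, with values of -0.45 and -0.39 (*Tufm* lost under 9 settings), and the median was -0.05 (0.01 with the length offset, so the sign turned). Of 21 genes of ribosome rescue and ribosome-associated quality control *N4bp2*, a nuclease-domain gene, rose by 0.49 (lost under 5 settings) and *Edf1*, a collision sensor, fell, with a value of -0.50 (lost under 3), the median of the list being 0.10 (0.02 without B6J-*Gtpbp2*-/- library 3). The 75 mitochondrial ribosomal protein genes had a median of -0.16 (-0.15 relative to all genes on TPM) with 6 lower, among them *Mrpl36* (-0.57, lost under 11 settings). With the length offset and with sex as a covariate 1 of the 75 was lower.

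In other stress systems single members rose, beside 3.61% of all genes. Of 23 endoplasmic reticulum chaperone and unfolded protein response genes *Herpud1* alone rose, and the list median of -0.26 was -0.08 without B6J library 3 and 0.01 without the library of lowest *Ttr* in each genotype. Among 18 heat shock genes the mitochondrial chaperone *Hspa9* (234, 244 and 245 CPM against 354, 557 and 535; 1.00) and the mitochondrial protease *Lonp1* (0.57) rose, while the cytosolic *Hsp90aa1* (-0.40, lost under 11 settings) and *Hspa4l* (-0.31, lost under 10) fell, and the median was -0.15 (-0.04 without B6J-*Gtpbp2*-/- library 1). Among 39 mTOR pathway genes *Sesn2*, *Eif4ebp1* and the mTOR inhibitor *Deptor* (0.70, lost under 2 settings) rose and *Sesn1*, *Rragd*, *Akt2* and *Lamtor4* fell, with values of -0.42, -0.42, -0.37 and -0.52 (lost under 7, 7, 7 and 13 settings), with a median of -0.04 (0.01 under upper-quartile scaling, its sign turning with the shift of all genes). Of 12 NRF2 targets *Slc7a11* and the haem oxygenase gene *Hmox1* (1.16, lost under 6 settings) rose, with a median of 0.06 (-0.06 with the length offset, so the sign turned).

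Some genes of cell death were called higher. *Hrk*, a neuronal BH3-only gene, was at 11.1, 11.3 and 8.56 CPM in B6J mice and 28.8, 38.3 and 31.2 in B6J-*Gtpbp2*-/- mice (log2 fold change 1.67, SE 0.147, adjusted p by edgeR's test 8.98e-05), without overlap. With *Pmaip1* (2.08) and *Bbc3* (1.34), which encode the BH3-only proteins NOXA and PUMA, it made the 3 risers among 21 BCL2 family and caspase genes. That is 14.3%, beside 3.61% of all genes, and the median of the list was 0.00. Of 16 p53 targets 4 rose and *Sesn1* fell, with a median of 0.09 (0.15 without B6J-*Gtpbp2*-/- library 3). The risers were *Pmaip1* and *Bbc3* again, the cell-cycle inhibitor gene *Cdkn1a* (28.2, 35.3 and 44.9 CPM against 93.8, 129 and 126, 1.69) and the death receptor gene *Eda2r* (1.81, lost under 7 settings).

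Complement, microglial and astrocyte reaction genes rose. Of 23 reactive glia and complement genes 13 rose, with a median log2 fold change of 1.59 (1.26 relative to all genes on TPM). *C4b*, a complement component, was at 10.5, 10.5 and 11.4 CPM in B6J mice and 38.3, 34.7 and 34.3 in B6J-*Gtpbp2*-/- mice (1.73, SE 0.106, adjusted p by edgeR's test 8.78e-06), although it shares reads with its near copy *C4a* and is uncertain to that extent. *Gfap*, the astrocyte filament gene, rose from 174, 153 and 172 to 327, 445 and 392 CPM (1.22), and *C1qa*, *C1qb* and *C1qc*, the subunits of the first complement component, by 1.32, 1.15 and 1.28. The groups did not overlap for any of these. The lipase *Lpl* (2.19), the protease inhibitor genes *Serpina3n* (1.77) and *Cst7* (5.36) and the chemokine genes *Cxcl10* (3.11, lost under 6 settings) and *Ccl3* (2.76, lost under 12) also rose.

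Microglial markers moved with these genes. Of 11 such markers 8 rose (3 of them *C1qa*, *C1qb* and *C1qc*, which are in the list above too), with a median of 1.06, and their summed level was 174, 163 and 185 TPM in B6J mice and 360, 412 and 409 in B6J-*Gtpbp2*-/- mice. None of the defining markers was at 0, and the part of microglial number in the complement result was not tested. In bulk tissue a change in the number of cells of a type and a change in RNA per cell cannot be told apart.

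Interferon-stimulated genes formed a related group. Of 16 tested 12 rose, with a median log2 fold change of 1.27 (1.06 relative to all genes on TPM). *Ifit3*, an antiviral effector, went from 9.49, 11.1 and 5.85 CPM to 31.5, 29.9 and 22.5 (1.66, SE 0.227, adjusted p by edgeR's test 0.00233), every B6J-*Gtpbp2*-/- library lying above every B6J library, although it shares reads with *Ifit3b*. *Irf7*, the amplifier of the response, rose by 1.65 (lost under 1 setting), the antiviral genes *Oasl2* and *Rsad2* by 2.07 and 1.77, and the ubiquitin-like modifier *Isg15* by 1.12 (lost under 6).

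Vessel markers were partly higher. Of 11 endothelial and pericyte markers 3 rose, with a median of 0.50, and with sex as a covariate 1 rose. They summed to 360, 360 and 346 TPM in B6J mice and 425, 605 and 629 in B6J-*Gtpbp2*-/- mice (*Rgs5* the most abundant). *Vegfa*, the vessel growth factor gene, rose from 75.7, 75.4 and 93.1 to 180, 257 and 256 CPM (log2 fold change 1.5, adjusted p by edgeR's test 0.000397), and B6J-*Gtpbp2*-/- library 1 was the lowest of its group, as it was for the summed vessel markers.

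Granule neuron genes fell. Of 12 granule neuron markers 7 fell and 1 rose, with a median log2 fold change of -0.51 (-0.51 relative to all genes on TPM, where 4 fell). *Gabra6*, the granule cell subunit of the GABA-A receptor, was at 843, 833 and 968 CPM in B6J mice and 424, 439 and 439 in B6J-*Gtpbp2*-/- mice (-1.02, SE 0.0885, adjusted p by edgeR's test 8.15e-05), without overlap. *Cbln1*, the synapse organiser released onto Purkinje cells, fell from 784, 721 and 792 to 442, 491 and 379 CPM (-0.81), and *Neurod1*, a granule cell transcription factor, from 452, 523 and 575 to 334, 338 and 316 (-0.65). The sum of the markers was 4749, 4962 and 4981 TPM in B6J mice and 4205, 4570 and 3861 in B6J-*Gtpbp2*-/- mice. *Calb2*, the calcium buffer calretinin, went the other way, from 453, 550 and 616 to 804, 853 and 710 CPM (0.55, lost under 5 settings). By TPM over the 6 libraries *Calb2* was the most abundant of the markers.

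**Figure D3:**
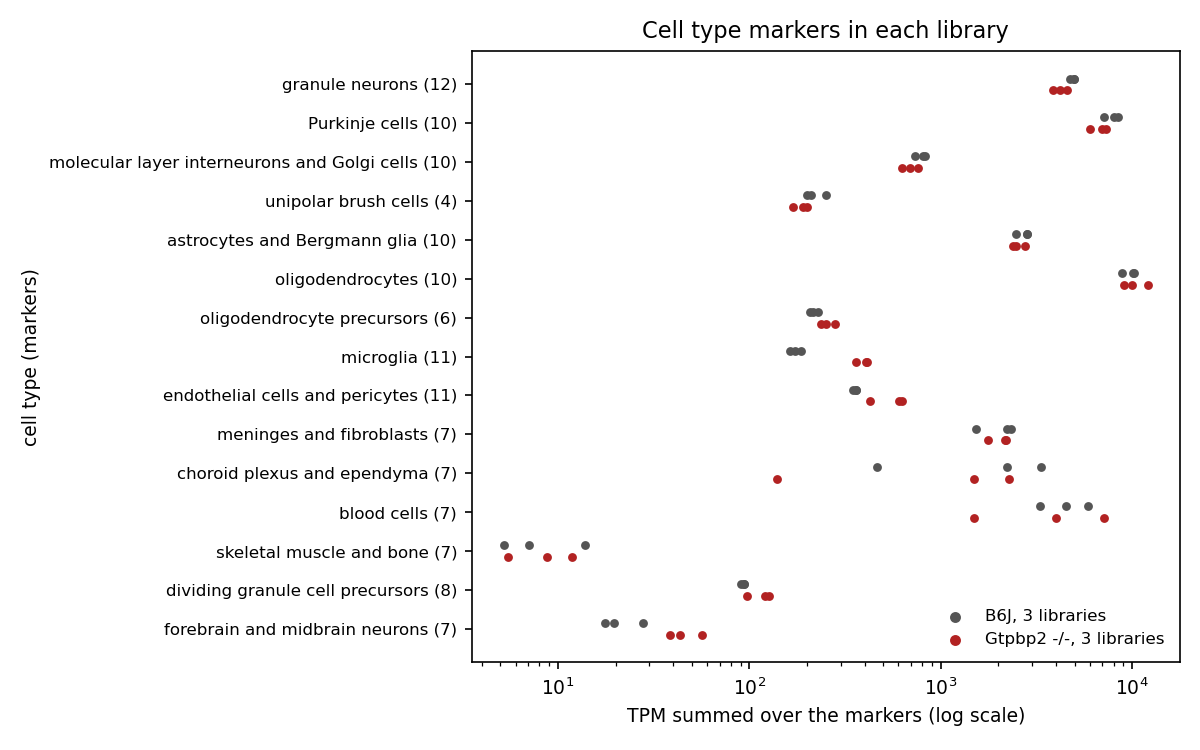
Summed TPM (horizontal axis, log scale) of markers of 15 cell types in each B6J and B6J-*Gtpbp2*-/- library. Microglial sums and the low forebrain and midbrain sums are higher in B6J-*Gtpbp2*-/- mice, granule neuron sums are lower by less than 2-fold, Purkinje cell and interneuron sums overlap between genotypes, and choroid plexus and blood sums vary from mouse to mouse.

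Some markers of other neurons fell. Of 10 Purkinje cell markers 4 fell (median -0.39; 8017, 8453 and 7092 TPM in sum against 6969, 7261 and 6036; 1 with sex as a covariate), among them *Pvalb*, a calcium buffer gene (-0.59, lost under 1 setting), and *Car8*, an IP3 receptor regulator (-0.43, lost under 7 settings). Of 10 markers of molecular layer interneurons and Golgi cells 4 fell (median -0.43; 809, 824 and 734 TPM against 760, 692 and 624; 2 with sex as a covariate), and so did 2 of 4 of unipolar brush cells (median -0.42; 210, 252 and 199 TPM against 190, 199 and 170), neither of them with sex as a covariate. *Prkcd*, a protein kinase C gene, and *Kit*, a receptor tyrosine kinase gene of interneurons, fell, with values of -0.75 and -0.67, *Kit* being lost under 2 settings.

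Glial and non-neural markers were mixed. Of 10 astrocyte and Bergmann glia markers 5 fell, among them the fatty acid binding protein gene *Fabp7* (61.2, 53.9 and 49.4 CPM against 24.3, 31.9 and 28.3; -0.96), while *Gfap* rose, with a median of -0.21 and summed levels of 2838, 2839 and 2466 TPM against 2383, 2760 and 2484. With sex as a covariate 1 of the 10 was lower, and the other 4 markers that fell, *Slc1a3* and *Aldh1l1* among them, lost their calls under 7 to 12 settings. Of 10 oligodendrocyte markers only *Ugt8a*, a myelin lipid enzyme gene, fell (-0.45, lost under 6 settings; median 0.00), and of 6 precursor markers *Cspg4*, the NG2 proteoglycan gene, rose (0.71, lost under 11 settings; median 0.13). Of 7 markers of dividing granule cell precursors only the Hedgehog target *Gli1* fell (lost under 13 settings), with a median of 0.53 (0.19 with the length offset and 0.07 relative to all genes on TPM) and sums of 94.0, 93.9 and 90.8 TPM against 97.1, 127 and 120.

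Some marker sets had 0 calls by edgeR: meninges (7 genes, median -0.02, turning to 0.03 with the shift of all genes under upper-quartile scaling), choroid plexus (7, -0.68), blood (7, -0.23, turning to 0.32 without the library of lowest *Ttr* in each genotype) and muscle and bone (6, -0.25, turning to 0.03 relative to all genes on TPM). The counts at an unadjusted p under 0.05 were 0, 0, 1 and 0, as were the counts called by DESeq2. The sums followed single mice: choroid plexus markers were at 3357, 2212 and 463 TPM in B6J mice and 139, 2278 and 1488 in B6J-*Gtpbp2*-/- mice (*Ttr* the most abundant), and blood markers at 5882, 3304 and 4489 against 1500, 7151 and 4013 (*Hbb-bs*). Meningeal sums were 2226, 2318 and 1532 against 1776, 2202 and 2176 (*Ptgds*).

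Many genes of synaptic vesicle release fell. Of 42 synaptic vesicle release genes 18 fell and 1 rose, with a median log2 fold change of -0.34 (-0.32 relative to all genes on TPM). *Snap25*, the SNARE of vesicle fusion, was at 1927, 2126 and 1882 CPM in B6J mice and 1179, 1293 and 1045 in B6J-*Gtpbp2*-/- mice (-0.75, SE 0.0998, adjusted p by edgeR's test 0.00103), and *Rims1*, a scaffold of release sites, at 261, 258 and 287 against 166, 152 and 138 (-0.82). Neither gene overlapped between genotypes. The complexin genes *Cplx1* and *Cplx2* fell, with values of -0.66 and -0.72, the vesicular glutamate transporter *Slc17a7* from 564, 562 and 509 to 317, 388 and 315 CPM (-0.68), and the release-site priming gene *Unc13b* rose by 0.49 (lost under 7 settings). Under sex as a covariate 12 of the 42 were lower, and on TPM 6.

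Some receptor genes fell. Of 41 glutamate receptor and auxiliary subunit genes 7 fell and 1 rose, with a median of -0.27 (-0.29 relative to all genes on TPM, where 2 fell), and the lower genes included *Grm4*, the presynaptic receptor of parallel fibres (654, 672 and 569 CPM against 319, 412 and 319; -0.85), and the AMPA subunit *Gria4* (-0.65). The riser was *Cacng3*, an auxiliary AMPA receptor subunit, at 7.04, 7.72 and 7.52 CPM in B6J mice and 30.1, 36.1 and 38 in B6J-*Gtpbp2*-/- mice (2.23, SE 0.124, adjusted p by edgeR's test 3.51e-06). Of 28 genes of GABA and glycine transmission 7 fell and 1 rose, with a median of -0.21 (-0.12 without B6J library 2), and 2 fell with sex as a covariate. *Gabrd*, the extrasynaptic delta subunit, fell from 174, 158 and 190 to 99, 117 and 99.2 CPM (-0.73), while *Gabrg3*, a subunit scarce in cerebellum, rose by 0.97 (lost under 8 settings).

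Ion channel genes changed both ways. Of 88 potassium channel genes 9 rose and 15 fell, with a median log2 fold change of -0.01 (0.04 under upper-quartile scaling, its sign turning with the shift of all genes), and on TPM 5 rose and 6 fell. *Kcnt2*, a sodium-activated channel, rose from 0.422, 1.16 and 1.47 to 17.2, 15.8 and 19.2 CPM (4.09, SE 0.358, adjusted p by edgeR's test 0.000276), every B6J-*Gtpbp2*-/- library lying above 10 CPM. *Kcng1* and *Kcnh5*, a modifier and a delayed rectifier subunit, rose by 2.72 and 2.12 (lost under 4 and 10 settings), while *Kcnip3*, an auxiliary calcium sensor, *Kcnj12* and *Kcnj9*, inward rectifiers, and *Kcnd2*, a transient channel, fell, with values of -0.91, -0.85, -0.80 and -0.72. Of 30 sodium and calcium channel genes 2 rose and 6 fell, with a median of 0.00, and *Cacna1h*, a low-threshold calcium channel, rose by 1.10 (lost under 7 settings). On TPM, and also with the length offset, 1 of the 30 rose and 2 fell. Without the library of lowest *Ttr* in each genotype 3 rose and 10 fell.

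Some calcium handling genes fell. Of 38 tested 14 fell and 1, *Calb2*, rose, with a median of -0.29 (-0.29 relative to all genes on TPM). *Jph4*, which joins plasma membrane and calcium store, was at 246, 258 and 242 CPM in B6J mice and 156, 124 and 112 in B6J-*Gtpbp2*-/- mice (-0.93, SE 0.111, adjusted p by edgeR's test 0.000580), without overlap. The calmodulin kinase genes *Camkk2*, *Camk4* and *Camk2b* fell, with values of -0.79, -0.75 and -0.50, *Camk4* and *Camk2b* being lost under 2 settings each. On TPM 2 of the 38 were lower and under upper-quartile scaling 8.

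Energy genes fell in both glycolysis and respiration. Of 20 glycolysis gene records 16 fell and 1 rose, with a median log2 fold change of -0.40 (-0.41 relative to all genes on TPM, where 7 fell). *Eno2*, the neuronal enolase, was at 725, 758 and 783 CPM in B6J mice and 486, 361 and 411 in B6J-*Gtpbp2*-/- mice (-0.85, SE 0.109, adjusted p by edgeR's test 0.000836), without overlap, and *Tpi1*, triose phosphate isomerase, went from 438, 439 and 461 to 298, 259 and 288 (-0.66). The riser was *Slc2a1*, the glucose carrier of vessels and glia (79.6, 85.4 and 69.1 CPM against 102, 99.6 and 104; 0.39, lost under 2 settings).

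Of 82 nuclear oxidative phosphorylation genes 41 fell and 1 rose, with a median of -0.33 (-0.30 relative to all genes on TPM). The median by library, relative to the B6J mean, was -0.01, -0.03 and 0.03 in B6J mice and -0.30, -0.29 and -0.40 in B6J-*Gtpbp2*-/- mice. *Cox6b1*, a cytochrome oxidase subunit, fell from 119, 120 and 133 to 86.6, 82.0 and 76.2 CPM (-0.60, SE 0.0819, adjusted p by edgeR's test 0.00122). The riser was *Cox6a2*, the muscle form of another subunit, at 0.316, 0.190 and 0.393 CPM in B6J mice and 6.63, 11.2 and 9.23 in B6J-*Gtpbp2*-/- mice (4.90). On TPM 5 of the 82 were lower, with the length offset 28 and with sex as a covariate 25.

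All 13 mRNAs of the mitochondrial genome had negative values, and 9 fell (median -0.37, or -0.38 relative to all genes on TPM, where 1 fell). The complex I gene *mt-Nd3* went from 576, 569 and 636 to 425, 352 and 375 CPM (-0.63, SE 0.0948, adjusted p by edgeR's test 0.00216), with no overlap. The oxidase gene *mt-Co1* fell, with a value of -0.32, and lost its call under 14 settings. Nuclear copies on chromosome 1 share reads with these genes and took them unevenly: the copy *Gm28661* held 136, 19037 and 233 counts in B6J mice and 14, 152 and 175696 in B6J-*Gtpbp2*-/- mice, so values of the genes concerned are uncertain to that extent.

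Of 24 cholesterol synthesis genes 13 fell and 11 were not called, all 24 values being negative, with a median log2 fold change of -0.40 (-0.39 relative to all genes on TPM). *Idi1*, isopentenyl diphosphate isomerase, was at 108, 116 and 119 CPM in B6J mice and 52.1, 59.3 and 73.2 in B6J-*Gtpbp2*-/- mice (-0.89). *Stard4*, a cholesterol carrier, went from 65.0, 66.9 and 55.2 to 29.0, 32.8 and 36.3 (-0.93, SE 0.108, adjusted p by edgeR's test 0.000467, lost under 1 setting). Neither overlapped between genotypes. *Cyp51*, a demethylase of the pathway, and the regulator *Srebf2* fell, with values of -0.73 and -0.40, *Srebf2* being lost under 6 settings. With sex as a covariate 8 of the 24 were lower and on TPM 4.

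Genes of neurite growth and the extracellular matrix included some of the larger falls. Called shares were 36% for neurite growth, 17.4% for matrix and 20% for TAM genes (1 of 5), beside 8.63% of all genes (5.02% lower) and 11.7% of protein-coding genes. Of 25 cytoskeleton and neurite growth genes 9 fell, with a median of -0.16 (-0.06 without B6J-*Gtpbp2*-/- library 2; 2 fell on TPM), among them *Gap43*, the growth cone protein gene (-0.91, lost under 3 settings), and *Stmn2* (-0.62), *Tubb2b* (-0.59) and *Tuba1a* (-0.49), each lost under 2, which encode microtubule regulators and tubulins. Of 23 brain extracellular matrix genes 3 fell, *Tnc*, *Adamts10* and the proteoglycan gene *Vcan* (-0.47, lost under 3 settings), and *Cspg4* rose, with a median of -0.15 (-0.26 without B6J-*Gtpbp2*-/- library 1, -0.06 without B6J-*Gtpbp2*-/- library 3). Of 5 TAM receptor and ligand genes only the receptor *Tyro3* fell, with a median of 0.04 (-0.07 without B6J-*Gtpbp2*-/- library 1, so its sign turned).

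**Figure D4:**
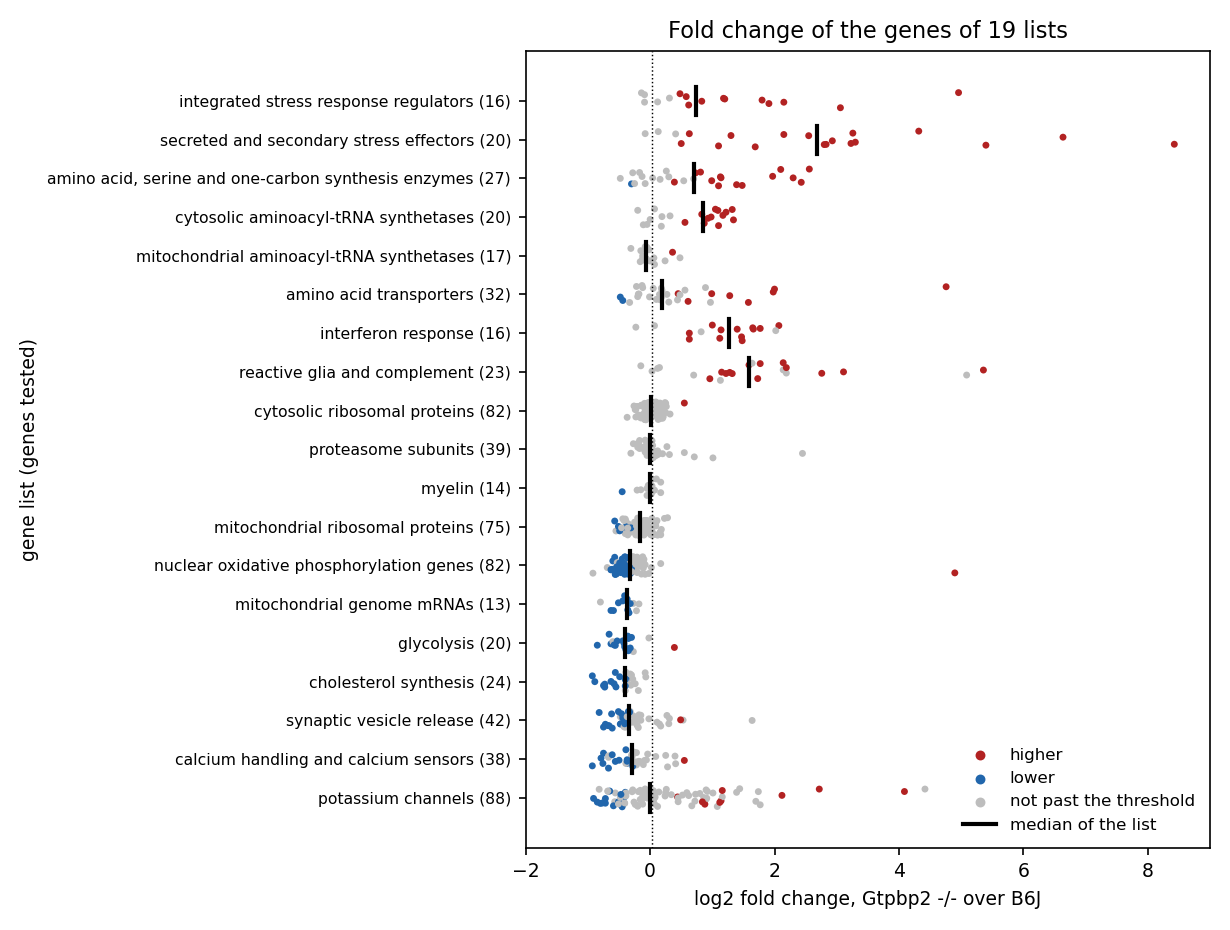
Log2 fold change of B6J-*Gtpbp2*-/- over B6J libraries (horizontal axis) for the members of 19 gene lists, with the median of each list as a black bar and that of all genes tested as a dotted line. Stress effector, synthetase, complement and interferon lists lie to the right, and glycolysis, respiration, cholesterol and vesicle release lists to the left.

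Several of the larger falls were in genes outside these classes. *Pappa*, a protease that frees insulin-like growth factors, was at 12.7, 5.35 and 12.8 CPM in B6J mice and 1.87, 1.40 and 1.45 in B6J-*Gtpbp2*-/- mice (log2 fold change -2.71, SE 0.326, adjusted p by edgeR's test 0.000749), and *Vwa7*, a von Willebrand domain gene, at 15.4, 12.9 and 11.1 against 1.22, 1.93 and 3.17 (-2.63). *Scx*, a tendon transcription factor gene, went from 5.69, 3.76 and 4.77 to 0.863, 1.17 and 1.34 (-2.07), *Ldoc1*, a retrotransposon-derived gene, from 13.0, 13.5 and 12.8 to 3.85, 3.75 and 4.27 (-1.73), and *Mybpc3*, a myosin-binding protein gene, from 149, 173 and 176 to 65.7, 47.5 and 38.4 (-1.72). All were apart in every library. The calcium-binding protein gene *Cabp2*, the glycosyltransferase gene *Gcnt1* and the Wnt receptor gene *Ror1* fell, with values of -2.05, -1.95 and -1.84.

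Large rises outside the classes included *Cyb5r2*, a cytochrome b5 reductase, at 0.0211, 0.106 and 0.0786 CPM in B6J mice and 4.27, 7.16 and 7.13 in B6J-*Gtpbp2*-/- mice (6.44, SE 0.433, adjusted p by edgeR's test 1.36e-05). The adhesion adaptor *Cass4* and the growth factor binding protein gene *Igfbp1* rose by 3.21 and 3.17.

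Called non-coding genes numbered 145, of which 58 overlapped a protein-coding gene and 16 overlapped one called in the same direction. *Gm42418* and *Ppp1ccb* had the smallest adjusted p among them and fell, with values of -1.61 and -0.83. Neither had a protein-coding gene within 5000 bases. *Gm43890*, inside *Mthfd2*, and *9330179D12Rik*, which overlaps the cyclin gene *Ccnd2*, rose by 2.60 and 2.55, while *Gm2694*, which overlaps *Cbln1*, and *5830444B04Rik*, near *Gabrd*, fell, with values of -0.97 and -0.93. Because the libraries did not keep strand, these and their protein-coding partners cannot be told apart where they overlap.

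Codon content, transcript length and GC content were described for both sets by their medians. The median number of AGA codons, which n-Tr20 reads, was 10.5 per 1000 in the 788 higher genes with a coding sequence (quartiles 5.84 and 16.4), 7.24 in 1146 lower genes (3.62 and 13.4) and 10.4 in all 16440 (5.36 and 16.9). Transcripts of lower genes had a median length of 2900 bases and 53.1% GC, those of higher genes 3318 bases and 49.5%, and all protein-coding genes 2834 bases and 50%.

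Ribosome footprints of the same genotypes held some of the changes of both sets. In footprints 406 of 13797 genes were called by edgeR (2.94%). Of the 712 genes higher in RNA and tested in footprints 107 were higher, with a median log2 fold change of 0.53, and of the 1172 lower in RNA 163 were lower and 1 was higher, with a median of -0.37, against 0.01 for all 13747 genes tested in both.

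Between B6J-*Gtpbp2*-/- and B6J-*Gtpbp1*-/- RNA 15 of 25190 genes were called (0.0595%). *Gtpbp2* itself, not called against B6J, was among them, with *Pafah1b2*, *Pisd* and *Ide*. None of the 898 genes higher or of the 1246 tested genes lower against B6J was among those called by edgeR, and their medians between the mutants were 0.01 and 0.02. At an unadjusted p under 0.05 there were 62 and 80 of them, and DESeq2 called 4 and 2.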

How the data were processed

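RNA sequencing of cerebella of 3 B6J and 3 B6J-*Gtpbp2*-/- mice, separate animals, was read from the transcript abundance files deposited by the authors. Per the notes of the submitters, reads were quantified with kallisto 0.42.4 against Gencode M20 transcripts (mouse build mm10). The deposited files give for each transcript an estimated count and TPM. Footprint libraries were read from the gene count files deposited by the authors, who mapped with HISAT2 2.1.0 and counted on coding sequence, and were used only to follow genes named from RNA.

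Estimated counts were summed by gene, and rounded, and genes reaching 5 counts in 3 or more of the 6 libraries were kept. Genotypes were compared by edgeR's quasi-likelihood F test with robust dispersion and TMM scaling, with Benjamini-Hochberg adjustment and a gene called at an adjusted p of 0.05 or less. CPM values use TMM-scaled totals. Software was R 4.3.3, edgeR 4.0.16, limma 3.58.1, DESeq2 1.42.0 and Python 3.11.15 with numpy 2.4.6, pandas 2.3.3, scipy 1.17.1 and matplotlib 3.10.9. Library totals were 46026737 to 52114145 counts. Replicates differed by more than counting noise (correlation 0.987 to 0.995, chi-square per gene 16.1 to 44.0). The pipeline was tested on simulated data, where false calls made up more than the 0.05 aimed for and many of the smaller changes were missed.

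Alternatives were DESeq2, upper-quartile scaling, TMM without mitochondrial genome genes, a length offset from effective transcript lengths, limma on log2(TPM + 0.5) and log2(TPM + 0.1), filterByExpr, no count filter, all 9 RNA libraries, a replicate block, protein-coding transcripts alone, sex as a covariate, female libraries alone, leaving out each library, and a 1.5-fold threshold.

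Genes were grouped in 46 lists written from general knowledge and in marker sets of 15 cell types. These lists, and the genes named, were chosen with earlier results of these data known, and genes named outside the lists were chosen after their values were seen as the largest or most significant changes. Lists are described by counts and medians beside those of all genes tested, with no test of the list as a whole. Promoters searched are 300 bases, 250 before and 50 after RefSeq starts of build GRCm38.p6, and the 250 before are printed.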

Additional observations from a re-analysis of the deposited data

How the results depend on the processing

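The number of genes called changed with the method. Against 2146 by edgeR (898 higher, 1248 lower), DESeq2 called 3409 (1487 and 1922) and an offset for effective transcript length 1351 (566 and 785). Limma on log2(TPM + 0.5) called 971 with 221 lower, and limma on log2(TPM + 0.1) 871 with 202 lower. Of the 2146 edgeR calls 1097 had an estimated change of at least 1.5-fold, 437 of them lower, which is a filter on the estimate and not a test against 1.5-fold. With sex as a covariate 1071 were called (477 and 594), and in female libraries alone 1063 (484 and 579). B6J library 2 was the only male, so female libraries alone are the same fit as leaving that library out. Both are counted among the settings under which a gene lost its call. The sex covariate rests on that library alone, so it comes close to leaving that library out and is not a separate check. It is counted among those settings as well. Fewer calls under it cannot be told apart from having fewer B6J libraries. Leaving out the library of lowest *Ttr* in each genotype, an alternative chosen after seeing the data, gave 3630 (1675 and 1955).

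Leaving out single libraries gave 972 to 2370 calls, 397 to 991 higher and 552 to 1379 lower, the fewest calls coming without B6J library 1 and the most without B6J-*Gtpbp2*-/- library 1. List medians close to 0 changed in size or sign with single libraries. Between B6J-*Gtpbp2*-/- and B6J-*Gtpbp1*-/- mice the range was 9 to 18 around 15 and DESeq2 called 46, and in footprints it was 118 to 604 around 406 and DESeq2 called 655.

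Samples of the same number were not treated as pairs: after removing genotype means their profiles had correlations of -0.16, 0.08 and -0.02. With a replicate block all the same, RNA calls were 2130 (835 and 1295), calls between the mutants 15 and footprint calls 510. Of 350 named genes tested 229 were called, and 122 of them lost their call under no alternative in which they were tested. Genes without a protein-coding transcript were not tested with those transcripts alone, and the 1.5-fold threshold was not followed gene by gene. The direction turned in none of these 229, and among the other called list members in 1 calcium channel gene, under 2 settings.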

Other observations

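Genes of the circadian clock changed in both directions. Of 17 circadian genes 5 rose and 1 fell (35.3% called, beside 8.63% of all genes and 11.7% of protein-coding genes), with a median log2 fold change of 0.18. *Ciart*, a repressor of the clock, was at 16.3, 14.7 and 10.5 CPM in B6J mice and 31.8, 42.7 and 34.6 in B6J-*Gtpbp2*-/- mice (1.40), and *Dbp*, a clock output factor, at 81.4, 74.7 and 61.7 against 35.7, 46.4 and 35.7 (-0.89, lost under 2 settings). *Nfil3*, which opposes *Dbp*, rose by 0.74 (lost under 10), and *Cry1* and *Arntl*, core clock genes, by 0.56 and 0.37 (lost under 2 and 8). Time of dissection was not available for analysis here. Of 23 immediate early genes 13% were called, near the 11.7% of protein-coding genes, and the median was 0.48 (0.26 without B6J-*Gtpbp2*-/- library 2). The neurotrophin *Bdnf* rose from 19.5, 23.1 and 23.4 to 39.3, 65.8 and 62.4 CPM (1.34), *Egr1*, an activity-induced factor, rose by 1.10 (lost under 4 settings) and *Jun* fell, with a value of -0.86 (lost under 10).

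Further classes are given with their share called, beside 8.63% of all genes and 11.7% of protein-coding genes. Of 71 axon guidance genes 7 rose and 6 fell (18.3%, median 0.00), including the semaphorin gene *Sema3c* (0.98) and the plexin gene *Plxna4* (-0.76, lost under 2 settings). On TPM 2 of the 71 rose and 0 fell, with sex as a covariate 2 and 3. Without the library of lowest *Ttr* in each genotype 9 rose and 19 fell. Of 44 collagen genes 4 rose and 2 fell (13.6%, median 0.14, or 0.01 relative to all genes on TPM): the vessel basement membrane genes *Col4a1* and *Col4a2* rose by 0.73 (lost under 7 settings) and 0.87, and *Col27a1* fell, with a value of -1.40 (lost under 2). Of 57 clustered protocadherin records 3 rose and 1 fell (7.02%, median 0.09), and of 22 neurotrophin and growth factor genes 2 rose, *Bdnf* and the neuregulin gene *Nrg3* (0.93), and 2 fell (18.2%, median 0.03, turning to -0.03 without B6J-*Gtpbp2*-/- library 1). Of 26 autophagy genes the receptor *Sqstm1* rose (0.49) and *Gabarapl2* and *Map1lc3a*, which coat autophagosomes, fell, with values of -0.42 and -0.41 (lost under 2 and 3; 11.5% called, median -0.05). Of 26 lysosomal genes 3 rose and 2 fell (19.2%, median -0.07), of 14 snoRNA host genes *Snhg1* (0.86) and *Snhg15* (0.84, lost under 9) rose (14.3%, median 0.15, from 0.07 without B6J-*Gtpbp2*-/- library 2 to 0.29 without B6J library 3), and of 14 myelin genes *Ugt8a* fell (7.14%, median 0.00).

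No gene was called by edgeR among 39 proteasome subunits (median 0.00), 34 replication-dependent histones (0.04, from -0.13 without B6J-*Gtpbp2*-/- library 2 to 0.32 without B6J-*Gtpbp2*-/- library 1) or 14 nonsense-mediated decay factors (-0.07, or -0.02 without B6J-*Gtpbp2*-/- library 1). At an unadjusted p under 0.05 there were 8, 5 and 4, and DESeq2 called 2, 1 and 1.

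With 3 mice per genotype, 1 male among them, small changes were not resolved, and the number of genes called moved more than 1.5-fold with single libraries. Bulk RNA does not separate cell number from RNA per cell, so the part of granule neuron or microglial number, or of blood and choroid plexus taken with the tissue, in any class was not tested. The direction split of the calls changed with the method: 53.3% were higher under upper-quartile scaling, and 77.2% by limma on TPM, which changes the test as well. Protein was not measured in these libraries.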
